A study of Mus musculus with 18 samples.

Results

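The genes described here are 10 genes of glycolysis and of the itaconate branch of the citric acid cycle. The count table lists 36172 genes. The 10 genes were chosen by name, but with earlier results of these data known, so they are not a blind sample of all genes. They are Irg1, the itaconate synthase (now also called Acod1); the hexokinases Hk1, Hk2 and Hk3; the phosphofructokinase subunit Pfkp; the regulatory enzyme Pfkfb3; the phosphoglycerate kinase Pgk1; the lactate dehydrogenase subunit Ldha; the lactate and proton carrier Slc16a3; and the transcription factor subunit Hif1a. All 10 passed the filter on low counts and were tested. Irg1 passed it only through its LPS groups, since its PBS libraries held at most 15.7 normalised counts. Glycolysis turns glucose into pyruvate in the cytosol, and lactate dehydrogenase and the monocarboxylate carriers dispose of pyruvate as lactate when it does not enter mitochondria. Macrophages exposed to lipopolysaccharide (LPS), a component of the bacterial outer membrane, are known to raise glycolysis, to stabilise the HIF-1 alpha protein and to divert cis-aconitate into itaconate, an inhibitor of succinate dehydrogenase.

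The libraries came from whole brain hemispheres of Cx3cr1-cre/ERT2+; NuTRAP+ mice, in which tamoxifen, given daily for 5 days at about 3 months of age, adds an EGFP tag to the ribosomes of Cx3cr1-expressing cells through a tagged ribosomal protein. All groups carried both alleles and received tamoxifen; 3 to 4 weeks later the mice were injected intraperitoneally with 5 mg/kg LPS or with phosphate-buffered saline (PBS), and tissue was taken at 24 h. Translating ribosome affinity purification with an anti-GFP antibody gave the positive fraction, and the lysate before the pull-down gave the input. Each of the 9 animals (6 female, 3 male) thus had both. The males were animal 267 among LPS animals and animals 272 and 273 among PBS animals, so sex was not balanced across treatments. The groups were Input PBS, Input LPS and Positive PBS with 4 libraries each (n = 4) and Positive LPS with 5 (n = 5). The input library of LPS animal 271 held 1252 counts and was left out; the other 17 libraries held 22968939 to 35123345. The Cx3cr1 driver marks microglia and also other macrophages that express Cx3cr1, and the delay after tamoxifen serves to lose labelled short-lived blood monocytes.

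The positive fraction carried its labelled cell type but was not pure. All 10 of 10 microglia markers, Cx3cr1, P2ry12, Tmem119 and Csf1r among them, were higher in it than in input in PBS animals, with a median log2 fold change of 4.22, and their summed level was 198057 to 244514 normalised counts in Positive PBS against 11262 to 14359 in Input PBS. The 6 border macrophage markers were also all higher (median 4.02). Of the 6 neuron markers 3 were higher and none lower (median 0.20), and the 5 oligodendrocyte markers were all lower (median -2.30). The 6 endothelial markers were all higher (median 1.33), and of the 6 astrocyte markers 1 was higher and 2 were lower (median -0.16). A value for a gene that is used by all brain cells therefore also counts RNA of cells outside the labelled type in both fractions.

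After LPS, 6 of the 10 genes were called in the positive fraction, where 33.8% of all 14804 tested genes were called. Irg1, Pfkfb3, Slc16a3, Hif1a and Ldha rose (5 of 10, against 19.0% of all genes called higher) and Pfkp fell (1 of 10, against 14.9% called lower). In input 1 of the 10, Irg1, was called, where 12.4% of all genes were. The LPS effect itself differed between the fractions for Irg1, Pfkfb3 and Ldha, 3 of 10 against 6.88% of all genes. Because the 10 genes were chosen with earlier results known, these shares are descriptions and not an unbiased comparison with all genes. Irg1 is among the genes called for LPS in both fractions and for the difference. It passed the filter on low counts only through its LPS groups. A call means a Benjamini-Hochberg adjusted p of edgeR's quasi-likelihood test under 0.05 over all tested genes together with a change over 0.32 on the log2 scale, the study's fold threshold; the same p is meant wherever an adjusted p is given for a gene, and fold changes are fitted log2 values with their standard error (SE). The median log2 change over the 10 genes was 0.36 for positive libraries and 0.18 for input libraries, whereas over all tested genes it was 0.01 and 0.00. In bulk fractions such as these, a change in the number of cells of a type and a change in RNA per cell cannot be told apart.

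**Figure D1:**
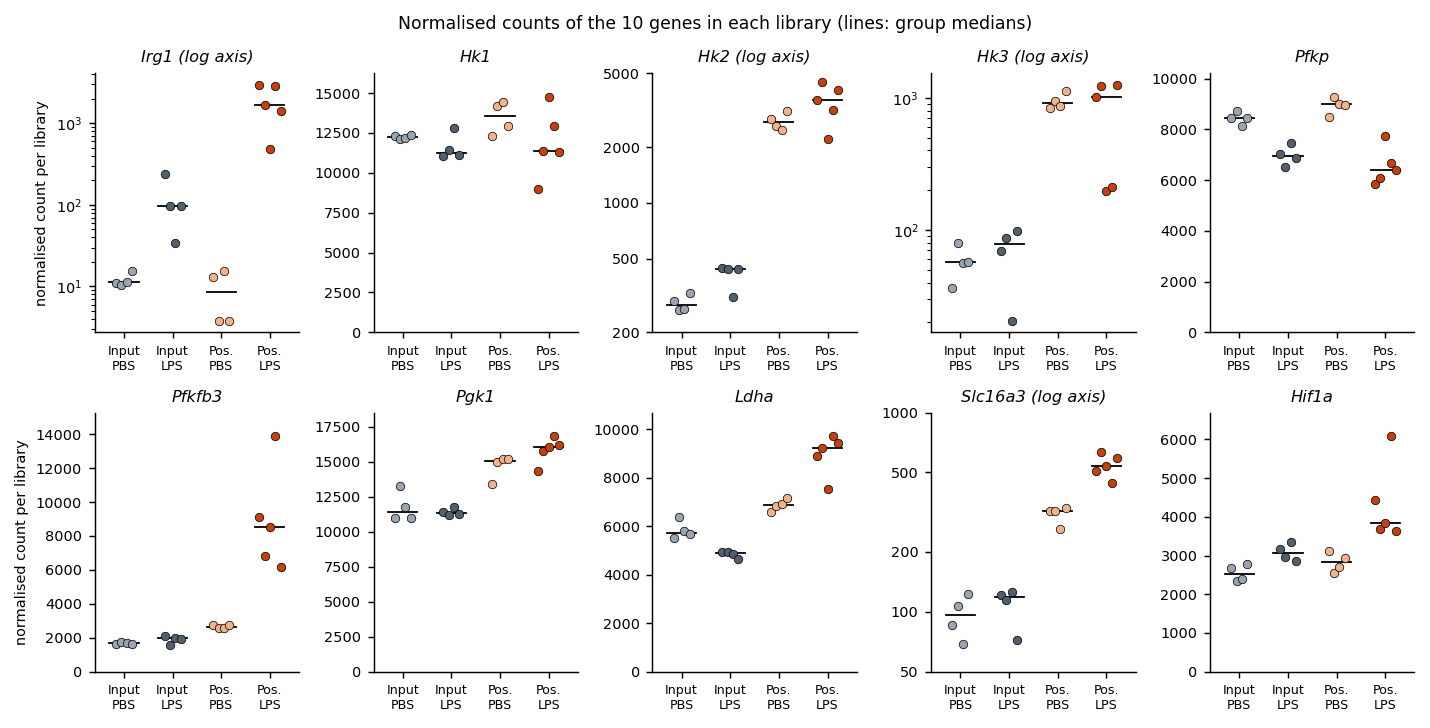
Normalised counts (vertical axes; log axes where named) of each gene in the libraries of the 4 groups (horizontal axes), 1 point per library, with a line at the group median. Irg1 lies under 16 in all PBS libraries and at 488 to 2942 in Positive LPS, whereas Ldha is higher in Positive LPS and lower in Input LPS than in the PBS libraries of the same fraction.

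**Figure D2:**
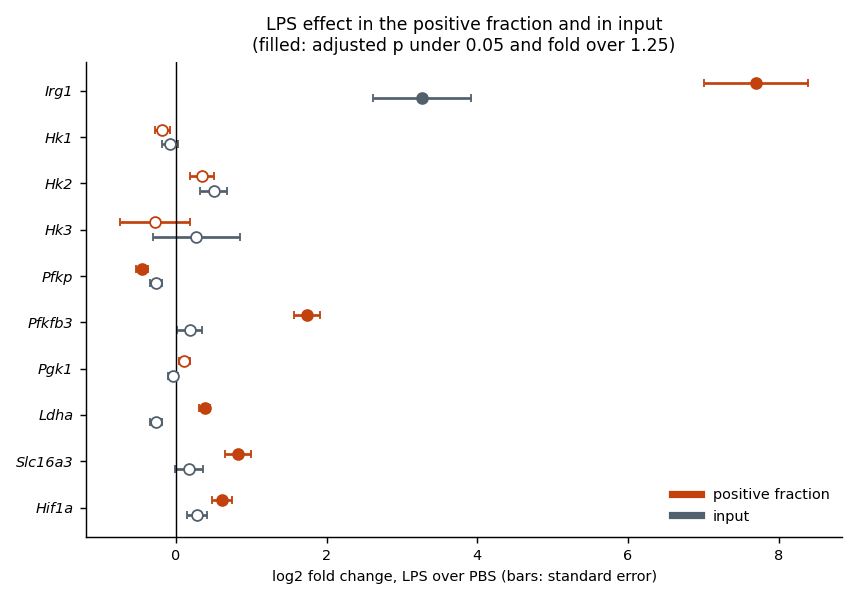
Fitted log2 fold changes of LPS over PBS (horizontal axis, bars are the standard error) for the 10 genes in the positive fraction and in input; filled points passed the test and the fold threshold. Irg1 reaches 7.70 for positive libraries and 3.26 for input libraries, and Ldha lies at 0.38 and -0.27.

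The promoter windows of 4 genes are shown because 3 of them (Irg1, Pfkfb3 and Ldha) are those whose LPS effect differed between the fractions, and the fourth encodes the inducible HIF-1 subunit whose core binding sequence can be searched for in them. Each window is the 250 bases before the RefSeq start site (GRCm38.p6) nearest to the gene's start in the count table, written 5′ to 3′ on the gene's strand, with the core letters ACGTG on either strand in capitals. For Irg1 it is chr14:103046762-103047011 on the plus strand, for Pfkfb3 chr2:11553930-11554179 on the minus strand, for Ldha chr7:46845554-46845803 on the plus strand and for Hif1a chr12:73907617-73907866 on the plus strand.
Irg1: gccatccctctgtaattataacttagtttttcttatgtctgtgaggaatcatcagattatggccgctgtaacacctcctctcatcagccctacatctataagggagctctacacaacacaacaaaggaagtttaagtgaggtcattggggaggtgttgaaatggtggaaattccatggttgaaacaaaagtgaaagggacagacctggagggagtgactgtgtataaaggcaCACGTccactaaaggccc
Pfkfb3: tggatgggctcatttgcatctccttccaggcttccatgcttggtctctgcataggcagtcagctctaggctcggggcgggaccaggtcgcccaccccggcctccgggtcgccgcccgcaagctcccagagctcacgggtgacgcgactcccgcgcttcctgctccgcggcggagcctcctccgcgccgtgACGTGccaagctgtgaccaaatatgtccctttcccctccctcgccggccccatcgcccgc
Ldha: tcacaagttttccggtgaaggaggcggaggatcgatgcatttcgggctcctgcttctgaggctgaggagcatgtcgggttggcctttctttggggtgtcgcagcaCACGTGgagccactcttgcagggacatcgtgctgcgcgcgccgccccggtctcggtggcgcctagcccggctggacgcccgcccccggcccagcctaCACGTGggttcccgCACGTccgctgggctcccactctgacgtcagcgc
Hif1a: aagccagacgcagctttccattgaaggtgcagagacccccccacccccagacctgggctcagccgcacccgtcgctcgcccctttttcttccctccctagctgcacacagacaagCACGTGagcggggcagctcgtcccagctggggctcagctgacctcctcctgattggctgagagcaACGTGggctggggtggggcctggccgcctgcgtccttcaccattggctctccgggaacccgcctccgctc
The core was present once in the Irg1 window, 18 bases before the start site in a window of 44.4% G and C, and once in the Pfkfb3 window. The Ldha window held it at 3 places, 2 of them as the palindrome CACGTG, in which the core reads on both strands and was counted once; the Hif1a window held it at 2 places. Across the 10 genes, 8 windows held the core, including Hk2 (2 places), Hk3 (1), Pgk1 (2) and Slc16a3 (2), and the windows of Hk1 and Pfkp did not. The start site used lay 583 bases from the gene's start in the count table for Slc16a3, 47 for Pfkp and 24 for Pgk1. Hk1, Pfkfb3 and Ldha each have 2 RefSeq windows, and only the nearest to the gene's start is described here. Among the 32851 mouse windows of the same length 16.6% held it, and among the 13946 windows of tested genes 20.7%. The kappa-B letters GGGANNTTCC were found in 1 of the 10 windows, that of Pgk1, against 1.21% of all windows. Only exact matches to these letters were counted. The Irg1 window holds tggaaattcc, which differs from them in 1 letter, so the count does not exclude similar sequences. These matches describe letters in a window and are not binding data, and Pgk1, Hk2 and Hk3 hold the core without a call for LPS.

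Irg1 (chr14:103047012-103056573, plus strand, mm10) makes the enzyme that decarboxylates cis-aconitate to itaconate. In PBS animals it was near the limit of 3 counts in both fractions, at 10.3, 11.0, 11.4 and 15.3 normalised counts in Input PBS and at 3.82, 3.83, 13.1 and 15.7 in Positive PBS. The 5 Positive LPS libraries held 488 in animal 270, 1421 in animal 507, 1664 in animal 267, 2878 in animal 271 and 2942 in animal 266. Each Positive LPS library was thus far above each Positive PBS library, while the LPS animals among themselves differed several-fold. The fitted rise was 7.70 on the log2 scale (SE 0.69, adjusted p = 1.21e-07), from a mean of 9.12 ± 6.20 (SD, n = 4) to 1879 ± 1039 (SD, n = 5).

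In input the same gene stood at 33.8 in animal 270, 97.7 in both animals 267 and 507, and 238 in animal 266, all above the PBS range. The rise there was 3.26 (SE 0.65, adjusted p = 0.00213). It was 2.66 without the Input LPS library of animal 266. With the animal as a block (limma) the rise was 3.12 and was not called (adjusted p = 0.0951). The order of the animals was shared, animal 270 being lowest and 266 highest in both fractions. Within LPS animals the log2 ratio of positive over input was 3.63, 3.82, 3.85 and 4.08, a mean of 3.84 ± 0.19 (SD, n = 4), so the ratio varied less than the level. In PBS animals it ranged from -1.75 to 0.43, and the fitted enrichment was -0.43 (SE 0.95, adjusted p = 0.732).

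The positive-over-input ratio of Irg1 in LPS animals was fitted at 4.01 (SE 0.51, adjusted p = 2.43e-06). The LPS effect was larger in the positive fraction than in input by 4.44 (SE 1.07, adjusted p = 0.0153). Without the Input LPS library of animal 266 these values were 4.62 and 5.05, and without animals 506 and 507 the difference was 4.09 and was not called (adjusted p = 0.148). Neutrophils also use Irg1, and their markers moved with it. Of 11 neutrophil markers 6 were tested and 5 of these rose in the positive fraction after LPS, the summed level going from 146 to 328 normalised counts in Positive PBS to 434 to 1161 in Positive LPS, and from 473 to 870 in Input PBS to 772 to 1682 in Input LPS. Animal 270 had the lowest sum in Positive LPS and animal 266 the highest, as for Irg1. Ly6g, a defining marker, was at or under 3 normalised counts in every library of all 4 groups, and Elane was so in every group but Input PBS. None of the 6 was higher in the positive fraction than in input, with a median of -0.98 in LPS animals, and Irg1 was at 4.01. The part of these cells in the Irg1 values was not tested.

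Among the 12602 genes that averaged at least 100 normalised counts, those whose log2 level followed Irg1 most closely over the 17 libraries were Ikbke, an inflammatory kinase (Pearson r = 0.980), 1810033B17Rik (0.978), the chemokine Ccl5 (0.977), the formyl peptide receptor Fpr1 (0.973) and Plscr1 (0.972). The mean of Ccl5 was 49.5 in Positive PBS and 6214 in Positive LPS, and that of Fpr1 25.2 and 1627. The 17 libraries share treatments and fractions and fall into groups of low and high Irg1, so these coefficients are a description.

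Itaconate is drawn from citrate cycle intermediates and acts on enzymes next to them, so the 23 enzymes of that segment were listed beside Irg1. In the positive fraction 3 of the 23 rose after LPS and none fell. Of all tested genes 19.0% were called higher there and 14.9% lower. Aco1, the cytosolic aconitase, rose by 0.52 (SE 0.08), Sdhd, a subunit of succinate dehydrogenase, by 0.43 (SE 0.08), and Suclg2, a subunit of succinyl-CoA synthetase, by 0.36 (SE 0.08; 0.31 and not called without the Positive LPS library of animal 267). Adjusted p-values were 3.23e-05, 0.000295 and 0.00101 in edgeR. The list's median was 0.02, against 0.01 for all genes. In input no enzyme of it was called, where 12.4% of all genes were. Of 11 genes of the NRF2 and ATF3 responses to which itaconate has been linked, 4 rose and none fell (median 0.24). The other 7, Atf3, Nfe2l2 and Nqo1 among them, were not called in the positive fraction. These counts stand beside the same 19.0% and 14.9% of all genes. In input 3 of the 11 were called, all higher (median 0.23). The list holds no direction of the link for each gene, so a rise is not a test of it. Nfkbiz, the gene of the inducible regulator I-kappa-B zeta, rose by 3.90 (SE 0.31, adjusted p = 2.59e-08), from 140 ± 44.0 to 2097 ± 1119 normalised counts. Hmox1, the heme oxygenase, rose by 1.73 (SE 0.14, adjusted p = 4.05e-08) and Slc7a11, the cystine and glutamate exchanger, by 1.26 (SE 0.29, adjusted p = 0.00203). Hmox1 also rose in input, by 1.23 (SE 0.15, adjusted p = 2.2e-05), whereas Slc7a11 was not called there (0.76, SE 0.29, adjusted p = 0.0945). For neither gene was the difference between the effects called (0.50 for both, adjusted p = 0.166 for Hmox1 and 0.567 for Slc7a11). Nfkbiz stood at 266 ± 33.1 in Input PBS and 532 ± 48.8 in Input LPS, a rise of 1.00 (SE 0.28, adjusted p = 0.0244), and its LPS effect was larger in the positive fraction by 2.91 (SE 0.40, adjusted p = 0.000251). The input call of Nfkbiz was lost without each of 4 libraries in turn (0.93 to 0.98, Input LPS of animals 266 and 270 and Input PBS of animals 272 and 506) and without animals 506 and 507 together (0.99).

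The hexokinases phosphorylate glucose in the first step of glycolysis. Hk1 (chr10:62268855-62379908, minus strand) is the common form in brain, Hk2 (chr6:82725027-82774454, minus strand) the form that insulin and hypoxia induce in other tissues, and Hk3 (chr13:55005985-55021385, minus strand) a form of myeloid cells. Hk2 and Hk3 were strongly enriched in the positive fraction and Hk1 did not pass the test, in PBS or in LPS animals. Positive over input in PBS animals was 4.05 for Hk3 (SE 0.57, adjusted p = 1.45e-05), 3.26 for Hk2 (SE 0.18, adjusted p = 6.62e-11) and 0.14 for Hk1 (SE 0.11, adjusted p = 0.325). In the same contrast the microglia markers had a median of 4.22 and the border macrophage markers one of 4.02.

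Hk2 was at 264 to 328 normalised counts in Input PBS and at 2468, 2609, 2847 and 3147 in Positive PBS. Its ratio of positive over input was 3.19 to 3.30 on the log2 scale in the 4 PBS animals, a mean of 3.26 ± 0.05 (SD, n = 4), the narrowest of the 10 genes. After LPS the positive libraries held 2206 (animal 270), 3183 (271), 3608 (266), 4080 (507) and 4495 (267), so animal 270 lay under the PBS range and 4 lay above it. The change was 0.34 (SE 0.16, adjusted p = 0.0884) and was not called, but with animal 270 left out of this group it was 0.48 and was called (adjusted p = 0.00514). In input, 309 in animal 270 stood apart from 439, 440 and 445 in the others. The change there was 0.50 (SE 0.18, adjusted p = 0.0685), and it was called without the Input LPS library of animal 270 (0.61), without its Positive LPS library (0.50) and in DESeq2 (0.50, adjusted p = 0.036).

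Hk3 split the LPS animals. Positive PBS libraries held 841, 875, 953 and 1124 normalised counts, and Positive LPS libraries 199 in animal 270, 212 in animal 271, 1011 in animal 266, 1223 in animal 267 and 1252 in animal 507. The first pair was far under every PBS library and the other 3 were within or above the PBS range. The fitted change of -0.28 (SE 0.46, adjusted p = 0.646) averages over that split. In input, animal 270 was again lowest at 20.6 while the others were at 69.2, 86.6 and 98.5, against 36.6 to 79.7 in Input PBS; the input of animal 271 was not usable. The monocyte markers (7 genes) summed to 293 and 262 normalised counts in the positive libraries of animals 270 and 271, the lowest of Positive LPS (444 to 643 in the other 3), and the border macrophage markers to 3822 and 3410, also the lowest (4526 to 5690 in the others). Positive PBS held 302 to 499 and 4788 to 9482 for the same lists, and the microglia markers summed to 158276 to 219081 over Positive LPS. The neutrophil markers were low in animal 270 only, at 434, and stood at 915 in animal 271, against 763 to 1161 in the other 3. Of the 7 monocyte markers 5 were tested, and after LPS Chi3l3 was called higher and Ccr2 lower in the positive fraction. The part of these cells in the Hk3 values was not tested. Both animals were female, as were animals 266 and 507.

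Hk1 was at 12129 to 12370 normalised counts in Input PBS, 11068 to 12814 in Input LPS, 12278 to 14458 in Positive PBS and 8987 to 14765 in Positive LPS. In the positive fraction its LPS change was -0.18 (SE 0.10, adjusted p = 0.177), and in input it was -0.08 (SE 0.11, adjusted p = 0.699). Set per kilobase of transcript, so that the paralogues can be compared in level, Hk1 made up 97.6% ± 0.19 (SD, n = 4) of the hexokinase signal of the 3 genes in Input PBS and 79.7% ± 2.57 (SD, n = 4) in Positive PBS. Hk2 went from 1.79% to 12.8% and Hk3 from 0.61% to 7.48%. In Positive LPS the shares were 75.6%, 17.6% and 6.75%, with the SD of Hk3 at 4.63 (n = 5). Hk1 thus remained the most abundant hexokinase transcript in every group on this scale. These shares were not tested.

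**Figure D3:**
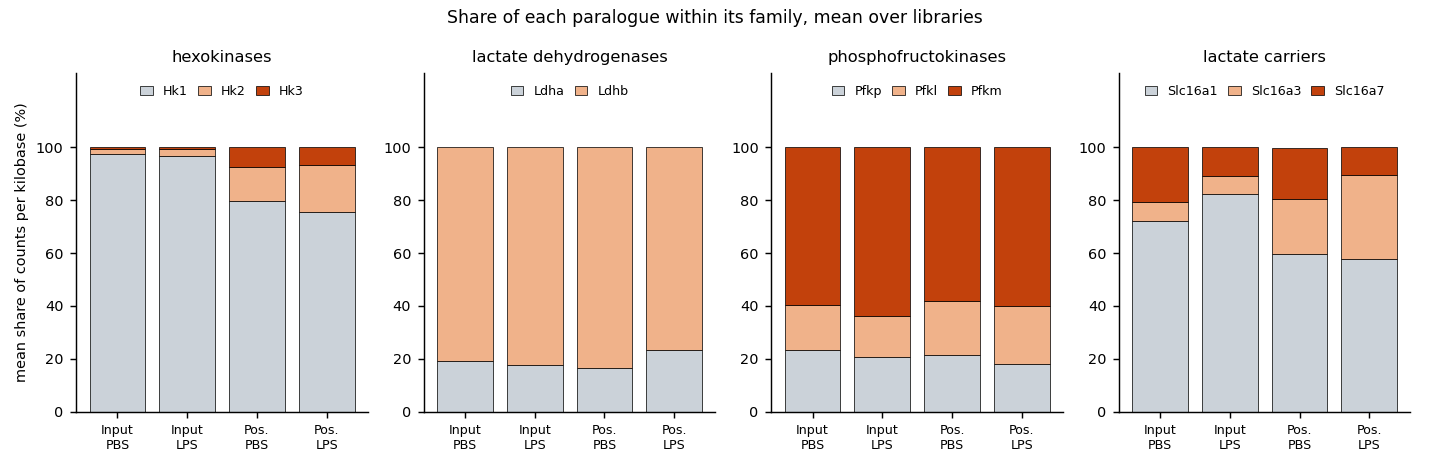
Mean share (vertical axis, per cent of counts per kilobase of transcript) of each paralogue within 4 families in the 4 groups, 1 stacked bar per group. Hk2 and Hk3 go from 1.79% and 0.61% in Input PBS to 12.8% and 7.48% in Positive PBS, and Slc16a3 rises from 6.95% in Input PBS to 31.7% of the 3 carriers in Positive LPS.

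Phosphofructokinase catalyses the committed step of glycolysis, and fructose 2,6-bisphosphate, made by the PFKFB enzymes, activates it. The transcripts of Pfkfb3 and Pfkp moved in opposite directions in the positive fraction. Pfkfb3 (chr2:11471431-11553929, minus strand), the family member with the highest kinase over phosphatase activity, was at 2579, 2589, 2736 and 2745 normalised counts in Positive PBS and at 6150, 6814, 8532, 9106 and 13885 in Positive LPS. The highest value was that of animal 271, and no library of one group overlapped the other. The rise was 1.74 (SE 0.17, adjusted p = 3.99e-07), a 3.34-fold change. Input libraries were at 1624 to 1758 after PBS and at 1577, 1948, 1976 and 2118 after LPS, which overlapped, and the change was 0.18 (SE 0.17, adjusted p = 0.541).

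The LPS effect on Pfkfb3 was larger in the positive fraction than in input by 1.56 (SE 0.24, adjusted p = 0.00064). Within animals, the positive over input ratio was 0.56 to 0.75 in the 4 PBS animals and 1.66 to 2.11 in the 4 LPS animals. It was already called in PBS animals (0.66, SE 0.18, adjusted p = 0.00473). Of the other enzymes that make or remove fructose 2,6-bisphosphate or reverse the step, 3 of 6 were tested and Pfkfb4 rose, by 0.40 (SE 0.10, adjusted p = 0.00306), from 583 ± 86.0 to 770 ± 28.8 normalised counts in the positive fraction.

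Pfkp (chr13:6579874-6648724, minus strand), the platelet-type phosphofructokinase subunit, fell in the positive fraction. Positive PBS libraries held 8486, 8960, 9016 and 9289 normalised counts and Positive LPS libraries 5836, 6082, 6405, 6680 and 7757, so the groups did not overlap. The change was -0.45 (SE 0.08, adjusted p = 0.000132). Input values were 8118 to 8713 after PBS and 6538 to 7470 after LPS, also without overlap; the change of -0.27 (SE 0.08, adjusted p = 0.0279) passed the p threshold but not the fold threshold. The difference between the effects was -0.17 (SE 0.11, adjusted p = 0.419). Pfkp was not called between fractions in PBS animals, with 0.08 (SE 0.08, adjusted p = 0.406) for positive over input. Neuron markers, which are abundant in both fractions, summed to 175984 to 198753 in Positive PBS and 135562 to 183295 in Positive LPS, and 1 of the 6 was called lower; their part in the Pfkp values was not tested. Per kilobase, Pfkp was 21.3% ± 0.69 of the 3 phosphofructokinase subunits in Positive PBS (SD, n = 4) and 18.2% ± 1.72 in Positive LPS (SD, n = 5), and Pfkm was the most abundant of the 3 in each group, at 58.2% to 63.9%.

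Pgk1 (chrX:106187124-106203699, plus strand) makes the first ATP of the pathway. It did not pass the test for LPS in either fraction. Input PBS libraries held 10949 to 13260 normalised counts, Input LPS 11210 to 11753, Positive PBS 13395 to 15218 and Positive LPS 14303 to 16820. In the positive fraction the LPS change was 0.11 (SE 0.07, adjusted p = 0.235), and in input it was -0.04 (SE 0.07, adjusted p = 0.765). Positive over input was 0.32 (SE 0.07, adjusted p = 0.00166) in PBS animals, on the fold threshold itself. That call was lost without each of 10 libraries in turn (0.29 to 0.32; the 5 of Positive LPS, the Input PBS libraries of animals 268 and 506 and the Positive PBS libraries of animals 272, 273 and 506), with all 18 libraries (0.20) and without animals 506 and 507 (0.28), while in LPS animals it was 0.47 (SE 0.07, adjusted p = 1.73e-05). The processed copies Pgk1-ps1, Pgk1-ps3 and Pgk1-rs7 were listed at 0, as were those of Ldha, so reads of Pgk1 and Ldha were not visibly split with them.

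Of the other 21 glycolysis enzymes listed, 19 were tested. In the positive fraction 2 rose and 1 fell after LPS, and the median was -0.07. Over all tested genes 19.0% were called higher and 14.9% lower. Adpgk, an ADP-dependent glucokinase, rose by 0.51 (SE 0.13, adjusted p = 0.00393). Eno2, the neuronal enolase, changed by -0.36 (SE 0.08, adjusted p = 0.0014); this call was lost with all 18 libraries (-0.31) and when either the Positive LPS library of animal 266 (-0.29) or Positive PBS of animal 273 (-0.32) was left out. The other 16 tested enzymes were not called.

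Lactate dehydrogenase is a tetramer of A and B subunits, and the A form favours the reduction of pyruvate to lactate. Ldha (chr7:46845804-46855627, plus strand) rose in the positive fraction, and its fitted change in input had the opposite sign. Positive PBS libraries held 6604, 6841, 6929 and 7173 normalised counts and Positive LPS libraries 7524, 8904, 9219, 9454 and 9721. Input PBS libraries held 5507, 5673, 5802 and 6364 and Input LPS libraries 4665, 4846, 4921 and 4941. Neither pair of groups overlapped. The rise was 0.38 (SE 0.07, adjusted p = 0.000465), and the input value was -0.27 (SE 0.08, adjusted p = 0.0247), past the p threshold but short of the fold threshold. The difference between them, 0.65 (SE 0.11, adjusted p = 0.000969), was called.

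Within animals the log2 ratio of positive over input for Ldha was 0.10 to 0.34 in the 4 PBS animals and 0.63 to 1.02 in the 4 LPS animals, with no overlap. Ldhb remained the larger part in all groups. Per kilobase, Ldha was 16.4% ± 0.55 of the 2 genes in Positive PBS (SD, n = 4) and 23.3% ± 3.62 in Positive LPS (SD, n = 5), and in input it was 19.3% ± 0.67 after PBS and 17.7% ± 0.92 after LPS (SD, n = 4 each). Oligodendrocyte markers were lower in Input LPS than in Input PBS, all 5 of 5 called, with sums of 55664 to 84631 against 87824 to 140534; their part in the input values of Ldha was not tested.

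Slc16a3 (chr11:120948484-120959000, plus strand) encodes the low-affinity monocarboxylate carrier that exports lactate from glycolytic cells. Positive libraries held 261, 320, 322 and 330 normalised counts after PBS and 444, 506, 541, 590 and 635 after LPS, with no overlap. The rise was 0.82 (SE 0.17, adjusted p = 0.00103). Input libraries held 68.6 to 123 after PBS and 72.0 to 125 after LPS, and the change there was 0.17 (SE 0.19, adjusted p = 0.608). The difference between the effects was 0.65 (SE 0.26, adjusted p = 0.158); with the animal as a block it was 0.71 and was called (adjusted p = 0.0483). Slc16a3 was enriched in the positive fraction in PBS animals by 1.68 (SE 0.19, adjusted p = 1.04e-06) and in LPS animals by 2.33 (SE 0.18, adjusted p = 5.35e-09). Per kilobase its share of the 3 lactate carriers Slc16a1, Slc16a3 and Slc16a7 was 20.8% ± 1.73 in Positive PBS (SD, n = 4), and LPS libraries of that fraction held 31.7% ± 6.12 (SD, n = 5), against 6.95% ± 1.61 and 6.84% ± 1.52 in input (SD, n = 4 each).

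Of the 14 other glucose and lactate transporters listed, all were tested, and in the positive fraction 2 rose and 4 fell after LPS (median -0.20). The shares of all tested genes were 19.0% called higher and 14.9% called lower. Slc2a6, a glucose carrier of myeloid cells, rose by 0.58 (SE 0.17, adjusted p = 0.0102) in positive libraries, while its change in input was -0.31 (SE 0.18, adjusted p = 0.259). Slc2a4, the insulin-responsive carrier, rose by 0.91 (SE 0.27, adjusted p = 0.0123) in positive libraries and by 1.52 (SE 0.28, adjusted p = 0.000973) in input. After LPS it was higher in input, at 218 ± 56.1, than in the positive fraction, at 133 ± 58.2 (positive over input -0.71, SE 0.25, adjusted p = 0.0217). That call was lost in some settings, among them without the Positive LPS library of animal 266 (-0.60) and without the Input LPS library of animal 270 (-0.59). Slc2a1, the main glucose carrier of the blood-brain barrier, changed by -0.56 (SE 0.12, adjusted p = 0.00128) in the positive fraction, from 5898 ± 919 to 4010 ± 668 normalised counts, and by 0.05 (SE 0.13, adjusted p = 0.83) in input. The 6 endothelial markers summed to 5625 to 7686 in Positive PBS and 4466 to 6776 in Positive LPS, and after LPS 3 of them were called lower in that fraction (Slco1c1, Flt1 and Kdr) and 1 higher (Cldn5), while in input 2 were called lower and 2 higher; their part in the Slc2a1 values was not tested. Slc2a5, the fructose carrier, had the largest change of the list, -4.93 (SE 0.33, adjusted p = 2.71e-09). It also fell in input, by -2.49 (SE 0.38, adjusted p = 0.000173), and the difference between the effects was -2.45 (SE 0.50, adjusted p = 0.00535). Slc16a7, a high-affinity monocarboxylate carrier, changed by -0.67 (SE 0.20, adjusted p = 0.0139), and by -0.71 (SE 0.21, adjusted p = 0.0331) in input; the input call was lost without each of 4 libraries in turn (-0.56 to -0.64, Input LPS of animals 267 and 270 and Input PBS of animals 268 and 506).

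Pyruvate that is not reduced to lactate enters mitochondria under the control of pyruvate dehydrogenase and its kinases. Of 14 genes of that step, all tested, 2 rose and 1 fell in the positive fraction (median 0.07). Among all tested genes 19.0% were called higher and 14.9% lower. Pdk4, a kinase that shuts off the complex, rose in both fractions, by 1.12 (SE 0.18, adjusted p = 6.33e-05) in positive libraries and by 0.85 (SE 0.18, adjusted p = 0.0028) in input, and was lower in the positive fraction than in input in PBS animals (-1.14, SE 0.18, adjusted p = 5.93e-05). Pdk1, a HIF-1 target in other cells, changed by -0.38 (SE 0.08, adjusted p = 0.00156), a call lost with Positive LPS of animal 271 left out (-0.32). Pdp2, a phosphatase that reactivates the complex, had 0.36 (SE 0.13, adjusted p = 0.0347), a call lost without each of 5 libraries in turn (0.27 to 0.37, Positive LPS of animals 266 and 271 and Positive PBS of animals 272, 273 and 506) with the animal as a block (0.34), with no filter (0.36), with sex as a term (0.33) and without animals 506 and 507 (0.41).

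Hif1a (chr12:73907867-73947530, plus strand) encodes the oxygen-regulated subunit of HIF-1, which binds genes of glycolysis. Its protein is controlled mainly by degradation, which these libraries do not measure. Positive PBS libraries held 2558, 2696, 2944 and 3127 normalised counts and Positive LPS libraries 3637, 3684, 3831, 4429 and 6084, the last in animal 271, which was also highest for Pfkfb3. The groups did not overlap. The rise was 0.61 (SE 0.13, adjusted p = 0.00083). In input the values were 2353 to 2779 after PBS and 2853, 2972, 3175 and 3346 after LPS, also without overlap, but the change of 0.28 (SE 0.13, adjusted p = 0.181) did not pass the test. The difference between the effects was 0.34 (SE 0.18, adjusted p = 0.327). Hif1a was not called between fractions in PBS animals (0.15, SE 0.13, adjusted p = 0.367) and was higher in the positive fraction in LPS animals by 0.49 (SE 0.13, adjusted p = 0.00268).

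The genes whose log2 level followed Hif1a most closely over the 17 libraries were 6330549D23Rik (r = 0.965), the G protein subunit Gna13 (0.959), the peptidase Nln (0.946), the glutathione reductase Gsr (0.943) and Pwp1 (0.941). Gsr stood at 1102 in Positive PBS and 2642 in Positive LPS. As with Irg1, these are descriptions over libraries that share treatment and fraction.

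Among the other 9 genes of HIF subunits and oxygen sensing, 3 rose and 2 fell in the positive fraction (median -0.16). All tested genes had 19.0% called higher and 14.9% called lower there. In input none of the 9 was called, where 12.4% of all genes were. Epas1, the gene of HIF-2 alpha, changed by -0.45 (SE 0.13, adjusted p = 0.00854), from 10076 ± 1571 to 7400 ± 1493 normalised counts. Epas1 is abundant in endothelium, whose markers are given above with Slc2a1. The prolyl hydroxylase gene Egln3, itself a HIF target, changed by -0.49 (SE 0.14, adjusted p = 0.00751), and Egln2 rose by 0.57 (SE 0.13, adjusted p = 0.00205). Hif3a rose by 1.08 (SE 0.37, adjusted p = 0.0283), a call lost without each of 4 libraries in turn (0.79 to 1.07, Positive LPS of animal 266 and Positive PBS of animals 272, 273 and 506). Vhl, whose product marks HIF subunits for degradation, rose by 0.34 (SE 0.10, adjusted p = 0.0127), a call lost without each of 4 libraries in turn (0.28 to 0.32, Positive LPS of animals 271 and 507 and Positive PBS of animals 272 and 273).

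Of 13 HIF targets outside glycolysis, all tested, 2 rose and 3 fell in the positive fraction (median -0.08), shares near the 19.0% and 14.9% of all genes. Ddit4, an inhibitor of mTORC1 that stress and glucocorticoids also induce, rose by 0.81 (SE 0.15, adjusted p = 0.000284). Adm, the adrenomedullin gene, rose by 0.54 (SE 0.17, adjusted p = 0.0176), which was 0.42 and not called without the Positive PBS library of animal 272. In input Ddit4 also rose (0.51, SE 0.15, adjusted p = 0.032), a call lost in some settings, among them without animals 506 and 507 (0.52). Adm had 0.52 there (SE 0.17, adjusted p = 0.0511), which was called in some settings, among them DESeq2 (0.52). The differences between fractions, 0.30 (adjusted p = 0.494) for Ddit4 and 0.02 (adjusted p = 0.98) for Adm, were not called. Ndrg1 changed by -1.21 (SE 0.16, adjusted p = 1.33e-05), Vegfa, the angiogenic growth factor, by -1.10 (SE 0.15, adjusted p = 1.79e-05) and P4ha1, a collagen prolyl hydroxylase subunit, by -0.70 (SE 0.17, adjusted p = 0.00357). Ndrg1, Vegfa and P4ha1 also fell in input (log2 changes -1.03, -1.24 and -0.62). The P4ha1 input call was lost in some settings, among them all 18 libraries (-0.59). In PBS animals Ndrg1 and Vegfa were lower in the positive fraction than in input, and P4ha1 was higher (1.01). The LPS effects on Ndrg1 and Vegfa did not pass the test of a difference between fractions (-0.17, SE 0.23, adjusted p = 0.755 for Ndrg1, and 0.13, SE 0.22, adjusted p = 0.806 for Vegfa). All 5 oligodendrocyte markers were also lower in Input LPS than in Input PBS (median -0.73), and lower in the positive fraction than in input. Within the positive fraction 2 of the 5, Opalin and Mog, were called lower after LPS (median -0.32). The part of oligodendrocytes in the Ndrg1 values was not tested.

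Levels of different genes can be set side by side only per length, and per kilobase of transcript the order in Positive PBS was Pgk1 (8050 ± 478 normalised counts per kilobase, SD, n = 4), Ldha (3794 ± 130), Hk1 (3146 ± 240), Pfkp (2156 ± 80.5), Hif1a (599 ± 53.8), Pfkfb3 (555 ± 18.8), Hk2 (502 ± 53.9), Hk3 (295 ± 39.2), Slc16a3 (71.0 ± 7.35) and Irg1 (3.48 ± 2.36). Hif1a, Pfkfb3 and Hk2 differed from their neighbour by less than their spread. In Positive LPS (n = 5) Pfkfb3 stood at 1853 ± 633, next to Pfkp at 1581 ± 180, and Irg1 at 716 ± 396, between Hif1a at 917 ± 218 and Hk2 at 637 ± 160. These neighbours, too, lay within their spread of each other. Pgk1 (8670 ± 513), Ldha (4939 ± 474) and Hk1 (2777 ± 502) remained the first 3, and Hk3 (242 ± 165) and Slc16a3 (125 ± 17) were the last.

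Between fractions, 5 of the 10 genes were higher in the positive fraction in PBS animals (Hk3, Hk2, Slc16a3, Pfkfb3 and Pgk1), where 21.0% of all tested genes were called higher, and 8 were higher in LPS animals, where 27.6% were. The 3 genes called in LPS animals only were Irg1, Ldha (0.89, SE 0.07, adjusted p = 1.09e-08) and Hif1a. In PBS animals Ldha passed the p threshold but not the fold threshold (0.24, SE 0.08, adjusted p = 0.0165). In LPS animals the order of the fitted log2 enrichments was Irg1 (4.01, SE 0.51), Hk3 (3.50, SE 0.54), Hk2 (3.10, SE 0.18), Slc16a3 (2.33, SE 0.18), Pfkfb3 (2.22, SE 0.18), Ldha (0.89), Hif1a (0.49) and Pgk1 (0.47), with Hk1 at 0.03 (SE 0.10) and Pfkp at -0.09 (SE 0.08). Neighbours among the first 3 differed by less than the larger of their errors, as did Slc16a3 and Pfkfb3, and Hif1a and Pgk1. No gene of the 10 was called lower in the positive fraction in either treatment.

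**Figure D4:**
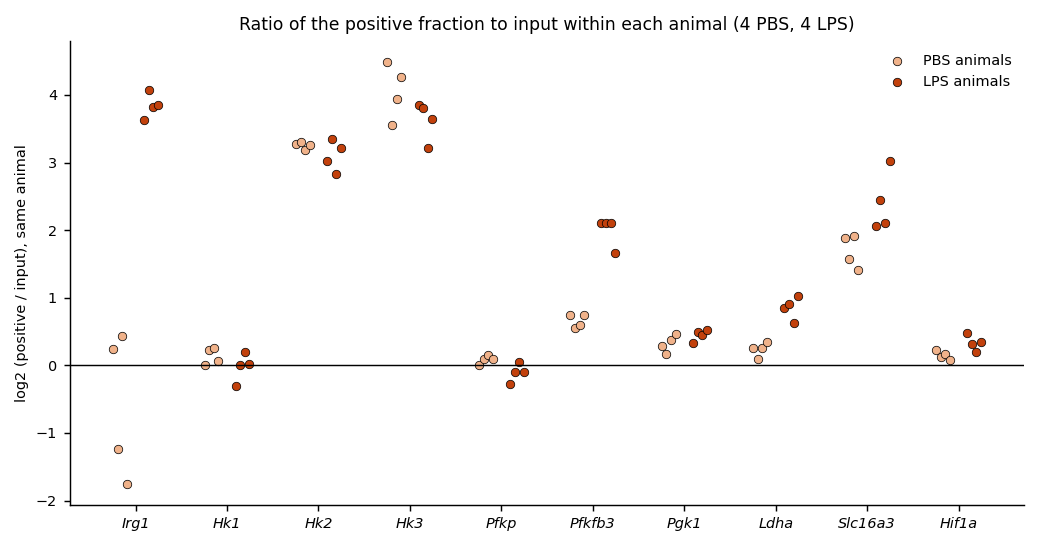
Log2 ratio of the positive fraction to input of the same animal (vertical axis) for each gene (horizontal axis), 1 point per animal, in 4 PBS and 4 LPS animals. Irg1 goes from between -1.75 and 0.43 in PBS animals to between 3.63 and 4.08 in LPS animals, Pfkfb3 from between 0.56 and 0.75 to between 1.66 and 2.11, and Hk1 and Pfkp stay within 0.30 of 0 in both.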

How the data were processed

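RNAseq was made from input and positive TRAP fractions of 9 animals. The authors aligned reads by strand to Mm10 (mm10 in the submitters' processing notes, with DESeq) in Strand NGS and deposited 1 estimated count for each RefSeq gene model and library; 81.7% of values above 0 held a fraction of a read, and all were rounded. The authors also deposited log2 values centred on Input PBS, which were not used. Counts were scaled by medians of ratios (15766 genes; size factors 0.764 to 1.32), and genes with over 20 normalised counts in every library of at least 1 group (14804) were fitted with edgeR 4.0.16 in R 4.3.3 (glmQLFit, glmQLFTest), with 1 mean per group, 13 residual degrees of freedom and 5 contrasts. The script was tested on simulated data. Limits of 3 counts (8.54e-06% to 1.31e-05% of a library) reflect counting error alone, because PCR copies of a molecule were not told apart. Lengths are those of the longest RefSeq-linked GENCODE vM21 transcript. Within-animal ratios and correlations used log2 of the normalised count plus 1, and likeness was ranked by Pearson correlation among genes with a mean of at least 100.

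Alternatives were TMM scaling, no filter, DESeq2 1.42.0, limma-trend (limma 3.58.1), sex as a term, all 18 libraries, no animals 506 and 507 (numbered apart from the rest; the labels do not call them a batch), each library left out, and a replicate block. Fractions of the same number come from the same animal; their deviations from group means correlated by 0.16 to 0.52 in 8 pairs. The genes, lists and tests were chosen with earlier results of these data known. All 10 genes are named throughout; of each pathway list, up to 3 called genes with the largest rise and up to 3 with the largest fall in the positive fraction are named, with the 5 genes most like Irg1 and Hif1a. A gene that met this rule is left out of the text.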

Additional observations from a re-analysis of the deposited data

Results flagged for a closer look

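The LPS effect differed between the positive fraction and input for 3 of the 10 genes by edgeR's test of the difference itself, with 4.44 for Irg1 (adjusted p = 0.0153), 1.56 for Pfkfb3 (adjusted p = 0.00064) and 0.65 for Ldha (adjusted p = 0.000969) on the log2 scale. For Irg1 and Pfkfb3 the larger change was in the positive fraction, and for Ldha the changes had opposite signs.

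Of 40 groups of libraries checked for a sample far from the others (10 genes in 4 groups), 3 had one, and chance gives about 1 in 20. Hk2 in Input LPS was at 309 normalised counts in animal 270, against 439 to 445 in the others. Pgk1 in Positive PBS was at 13395 in animal 268, against 14954 to 15218. Slc16a3 in Positive PBS was at 261 in animal 273, against 320 to 330.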

How the results depend on the processing

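The 25 alternatives gave 1250 values for the 50 gene and contrast pairs: 1231 kept the call, 14 lost it, 5 gained it and 0 reversed. The genes called for LPS in input numbered 1 in the report, 2 in DESeq2 (Irg1 and Hk2), 0 with the replicate block, and 1 to 2 when 1 library was left out. Under the replicate block (the animal) the number called for the difference between fractions was 4, with Slc16a3 added, and no other call of the 10 genes changed beside Irg1 in input. TMM scaling, no filter, limma-trend and sex as a term changed none of the 50 calls. Over all genes, calls for LPS in input were 1839 and, without animals 506 and 507, 1077; calls for the difference were 1018, against 323 without these animals and 1915 with the block. Without these animals the number called for the difference was 2 of the 10, and 8 of the 28 other genes that met the rule for naming lost their call for LPS in the positive fraction; this setting holds fewer samples. With all 18 libraries the nearly empty one moved the scaling: 2224 of 5922 calls for positive over input were higher in PBS animals (3114 of 5899 in the report) and 3416 of 7910 in LPS animals (4091 of 7908), and the median over all genes moved to -0.12 in PBS animals. Low counts limit Irg1 in PBS libraries, where 3.82 to 15.7 normalised counts set its fold change.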
